A study of Rattus norvegicus with 6 samples.

Results

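Potassium channel genes were examined in spinal cord RNA-seq libraries of rats with neuropathic pain and of sham-operated rats. The set holds each gene of the deposited table whose symbol is Kcn, a family letter code and a number, and whose estimated counts over all 6 libraries summed to at least 60. Of 22050 genes in the table, 91 had such a symbol and 78 of these reached the sum; they form 19 families, from Kcna to Kcnv. The sum was taken over both groups together, so the choice used no difference between them. The animals were male Sprague–Dawley rats aged 8 to 10 weeks, with 3 libraries from a group called SNI-NP, with spared nerve injury, and 3 from a group called Sham, with sham surgery. In spared nerve injury, branches of the sciatic nerve in one leg are cut while the sural branch is left intact, so the lesion lies outside the spinal cord. No genetic change or drug is named for either group, and the time from surgery to sampling and the level of the cord are not given in the sources used here. Whether a library came from a single rat is also not stated, so each library was counted as 1 replicate and the p-values measure the spread between these libraries.

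Potassium channels let potassium ions leave the cell, pull the membrane back to rest after an action potential and set how readily a neuron fires. Voltage-gated pore subunits (Kcna, Kcnb, Kcnc, Kcnd, Kcnh and Kcnq) open on depolarization, ion-activated ones (Kcnma, Kcnn and Kcnt) open to calcium or sodium inside the cell, and inward rectifiers (Kcnj) and tandem-pore leak channels (Kcnk) act near the resting potential. The Kcnf, Kcng, Kcns and Kcnv subunits form no channel alone and modify Kcnb channels, and the Kcnab, Kcne, Kcnip and Kcnmb proteins are auxiliary subunits. In the spinal cord, Kcna channels sit beside the nodes of Ranvier of myelinated axons, Kcnc channels serve fast-spiking cells, and Kcnj10 in astrocytes takes up potassium released by active neurons.

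The total was between 16670760 and 18151156 estimated counts per library. CPM here is a count scaled to library size with TMM factors, which correct for differences in composition between libraries, and FPKM is the deposited value, scaled by gene length as well. Differences are log2 fold changes of SNI-NP against Sham with their standard error (SE) from edgeR's quasi-likelihood test, and the p-values were corrected over the 14426 genes tested after Benjamini and Hochberg (adjusted p). All 78 members had enough counts to be tested. The tissue label was checked against marker genes. Markers of the cord were present, such as Gfap of astrocytes at 130.4 to 319.6 FPKM. Prx, which encodes a protein of the myelin of peripheral nerves, stood at 875.3 to 1329.2 FPKM and was higher in SNI-NP by 0.36 ± 0.15 (unadjusted p = 0.049), and its part in the results was not tested. Scn10a, a sodium channel of dorsal root ganglion neurons, was at 88.1, 184.4 and 226.5 CPM in Sham and at 14.3, 276.6 and 211.8 CPM in SNI-NP (each series in the order of replicates 1, 2 and 3, as throughout). These are genes of cells outside the cord itself, and their levels differed between libraries of one group. In bulk tissue, fewer cells of a type and less RNA per cell cannot be told apart.

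Of the 78 members, 8 were lower in SNI-NP at an unadjusted p under 0.05 and 0 were higher, and 0 passed an adjusted p of 0.05, the smallest being 0.307. The 8 are Kcna1, Kcna2 and Kcna3, Kcnh7, Kcnip4, Kcnma1, Kcnt2 and Kcnj10. Over all genes tested 5.94% were lower and 4.91% were higher at that level, 10.8% together, and 0.0% passed after adjustment. The 8 members are 10.3% of the set, which is near the share of all genes that passed in either direction. The lower members numbered 20 without Sham replicate 2 and between 6 and 9 without any other single library. With DESeq2 in place of edgeR, 3 members (Kcna1, Kcnh7 and Kcnip4) passed an adjusted p of 0.05, where 1.47% of all genes did. The 3 SNI-NP values all lay below the 3 Sham values in 7 members (8.97%, against 8.15% of all genes) and all above them in 3 (3.85%, against 10.4%).

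The direction was less even than the count. The fitted difference was below 0 in 59 members (75.6%), against 49.1% of all genes, and the median was -0.21 on the log2 scale, against 0.006 over all genes. That median rested in part on single libraries. Without SNI-NP replicate 1 it was -0.08 and without SNI-NP replicate 2 it was -0.46. Leaving out the second Sham library gave -0.33 and leaving out the third gave -0.13. With a correction of each library for gene length, 7 members were lower and 2 higher, where 4.91% and 9.03% of all genes were, and the median was -0.15. Of the 78 members, 41 kept the sign of their fitted difference under all those of the 16 alternatives in which they were tested.

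**Figure D1:**
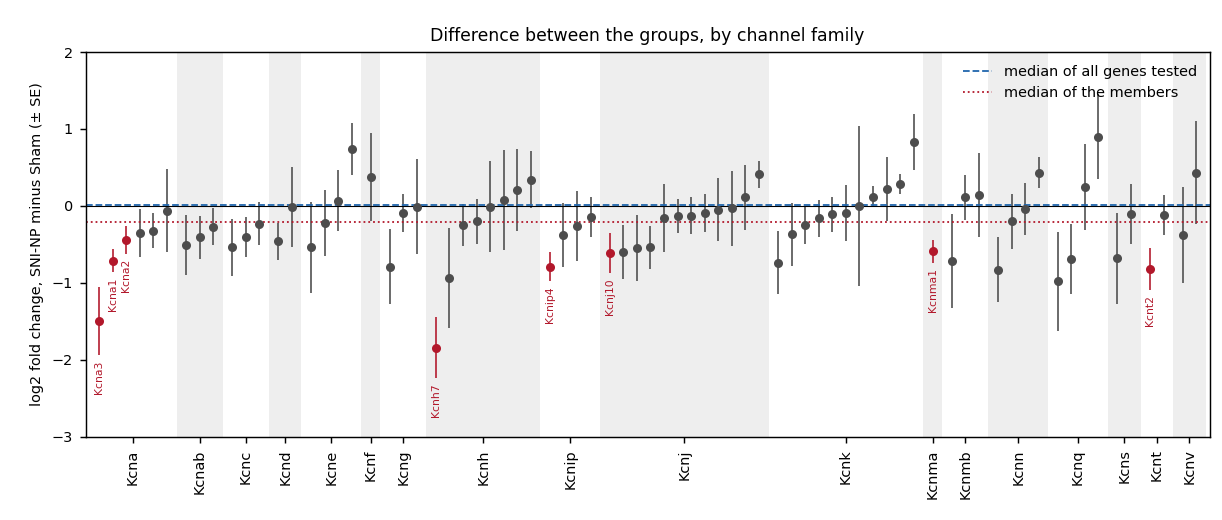
Log2 fold change of SNI-NP against Sham (vertical axis, points with bars of ± SE) for 75 of the 78 members, ordered within each family on the horizontal axis. Red points mark the 8 members with an unadjusted p under 0.05, all below 0; the dotted line is the median of the members (-0.21) and the dashed line that of all genes tested (0.006).

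Promoter sequences were taken from RefSeq (build GRCr8), which gave the 250 bases before the transcript start for 54 of the 78 members. The GC box, GGGCGG or CCGCCC on the other strand, was in 30 of these 54 (55.6%), against 30.5% of 33469 rat promoters. The TATA box TATAAA or its complement TTTATA was in 1 (1.85%, against 12.9%), and CCAAT or ATTGG in 13 (24.1%, against 34.0%). The 54 members had 59 promoters, and a member counted as having a motif when any of its promoters did. The shares over all rat promoters were taken promoter by promoter. The median GC content was 60.8% in the members' promoters and 51.2% in all of them, and a GC-rich stretch holds a GC box more readily. Kcnh7 and Kcna3 are shown because they had the largest fitted differences of the 8 lower members (-1.84 and -1.50). The Kcnh7 stretch, chr3:68230672-68230921 on the minus strand of GRCr8, and the Kcna3 stretch, chr2:197320074-197320323 on the plus strand, each hold 3 GC boxes, in capitals, and no TATA box. Both are written 5′ to 3′ in the direction of the gene and end at the base before the transcript start.
Kcnh7: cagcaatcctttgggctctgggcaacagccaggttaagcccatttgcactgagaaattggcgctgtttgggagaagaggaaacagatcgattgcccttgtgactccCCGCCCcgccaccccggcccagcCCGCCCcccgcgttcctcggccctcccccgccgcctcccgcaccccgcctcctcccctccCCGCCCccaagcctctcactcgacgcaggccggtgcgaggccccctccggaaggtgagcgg
Kcna3: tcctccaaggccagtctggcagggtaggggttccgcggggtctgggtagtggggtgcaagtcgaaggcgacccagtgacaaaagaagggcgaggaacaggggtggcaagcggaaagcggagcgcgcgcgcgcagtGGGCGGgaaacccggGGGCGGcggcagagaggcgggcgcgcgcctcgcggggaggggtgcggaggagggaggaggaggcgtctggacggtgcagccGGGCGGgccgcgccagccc

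The Kcna family, whose channels open at low voltage and hold back firing along axons, had the most members past the unadjusted threshold. Of its 6 members 3 passed as lower, against 5.94% of all genes, and Kcna2 of these was lost after correction for gene length. All 6 had a fitted difference below 0 (median -0.40), against 49.1% of all genes. Kcna4 differed by -0.06 ± 0.54 and turned above 0 without SNI-NP replicate 1 (0.39), without Sham replicate 2 (0.04), without both replicate 1 libraries (0.28) and after correction for gene length (0.02). Kcna1 (ENSRNOG00000019750), a subunit of axonal channels, was at 64.3, 55.9 and 57.2 CPM in Sham and at 43.1, 29.7 and 35.8 CPM in SNI-NP. All 3 SNI-NP libraries lay below the lowest Sham library. The difference was -0.71 ± 0.15 (unadjusted p = 0.00194, adjusted p = 0.307), and it stayed past the unadjusted threshold in each of the 6 fits that left out 1 library.

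Kcna2 (ENSRNOG00000018285), which assembles with Kcna1 in the same axonal channels, was the most abundant of the family at 30.1 FPKM on average. Its values were 458, 335.7 and 367.6 CPM in Sham and 326.8, 221.7 and 307.8 CPM in SNI-NP. The groups did not overlap, but the lowest Sham library and the highest SNI-NP library were close. The difference was -0.44 ± 0.18 (unadjusted p = 0.0451, adjusted p = 0.453). It missed the unadjusted threshold in 3 of the 6 fits that left out 1 library (unadjusted p-values of 0.12 and 0.0507 without the first or the third Sham library and 0.0889 without the second SNI-NP library). After correction for gene length it was -0.16 (unadjusted p = 0.27). Its gene length of 11192.9 bases, derived from counts and FPKM, was well above the median of 2271.4 bases over all genes.

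Kcna3 (ENSRNOG00000062002), a channel of neurons and of immune cells, was far lower, at 0.37 FPKM on average. It was at 1.08, 2.14 and 1.98 CPM in Sham and at 0.69, 0.389 and 0.754 CPM in SNI-NP, with no overlap. The difference was -1.50 ± 0.44 (unadjusted p = 0.0101, adjusted p = 0.402). It rested on 122 counts over all libraries. Of the other Kcna members, Kcna6, another neuronal subunit, was at 158.4, 92.4 and 162 CPM in Sham and at 92.1, 132.1 and 106.5 CPM in SNI-NP. The groups overlapped and the difference was -0.32 ± 0.23 (adjusted p = 0.616).

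Kcnh7 (ENSRNOG00000007528), an ether-a-go-go-related channel of neurons, had the largest fitted difference of the 8. It was at 2.16, 3.72 and 4.71 CPM in Sham and at 0.805, 1.33 and 0.812 CPM in SNI-NP. The highest SNI-NP value was below the lowest Sham value. The difference was -1.84 ± 0.40 (unadjusted p = 0.00214, adjusted p = 0.312). It rested on 235 counts over all libraries, with 14, 24 and 14 counts in SNI-NP. The mean level of Kcnh7 was 0.675 FPKM. Over the 8 Kcnh members the median was -0.11, and 5 of them had a fitted difference below 0. Kcnh2, its most abundant member and best known for the heart, averaged 20.6 FPKM and ranged from 53.4 to 98.3 CPM in Sham and from 46.9 to 83.7 CPM in SNI-NP.

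Kcnip4 (ENSRNOG00000032350), a calcium-binding auxiliary subunit of Kcnd channels, was at 16.4, 13.1 and 16.9 CPM in Sham and at 7.19, 9.16 and 10.6 CPM in SNI-NP. All SNI-NP libraries lay below all Sham libraries, and the difference was -0.79 ± 0.19 (unadjusted p = 0.00434, adjusted p = 0.336). The other Kcnip genes were Kcnip1, Kcnip2 and Kcnip3, all with overlapping groups. The Kcnd pores they bind were Kcnd1 and Kcnd3, which carry the A current that delays firing. Kcnd3 was at 27.4, 41.7 and 42.6 CPM in Sham and at 19.4, 32.2 and 29.9 CPM in SNI-NP, an overlapping difference of -0.46 ± 0.24 (adjusted p = 0.51). It was -0.26 without SNI-NP replicate 1 and passed without Sham replicate 1 (-0.65, unadjusted p = 0.0291). Kcnd1, at 15.5 FPKM on average, ranged from 39.8 to 77.1 CPM in Sham and from 17.5 to 85.6 CPM in SNI-NP. Kcnd2 and Kcnb2, other subunits studied in pain, were not analysed here.

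**Figure D2:**
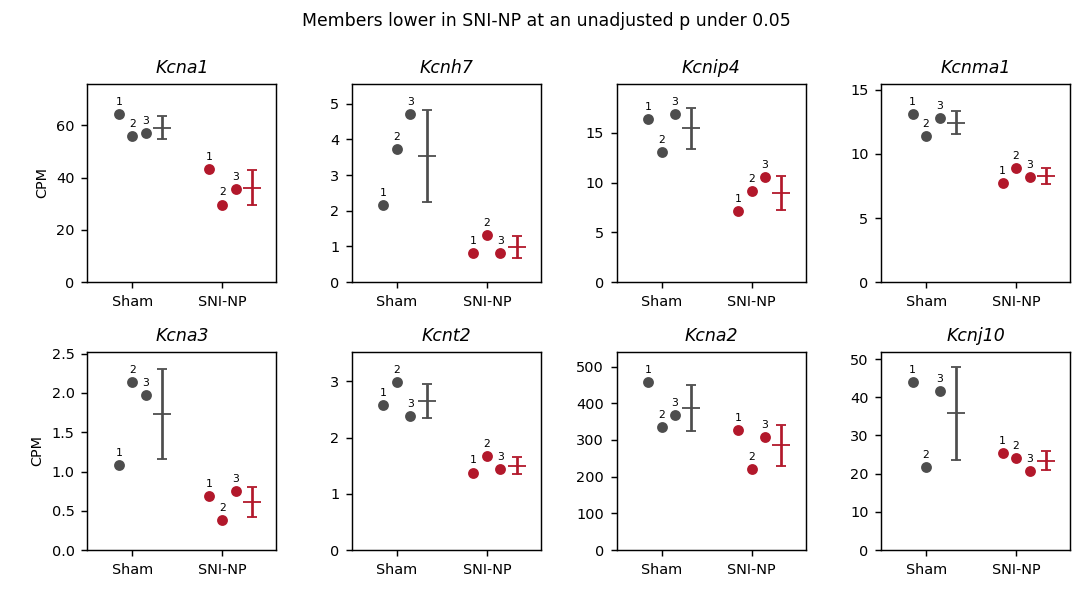
CPM (vertical axes from 0) of the 8 members lower in SNI-NP at an unadjusted p under 0.05, in each library (points with the replicate number) and as mean ± SD of 3 libraries (bars). The groups are apart in all but Kcnj10, whose Sham replicate 2 (21.7 CPM) lies among the SNI-NP values.

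Among the ion-activated channels, 2 of 7 members passed as lower, against 5.94% of all genes. Kcnma1 (ENSRNOG00000005985), the large-conductance calcium-activated channel, was at 13.1, 11.4 and 12.8 CPM in Sham and at 7.71, 8.89 and 8.23 CPM in SNI-NP. It had the narrowest spread of the 8 relative to its level, 12.4 ± 0.915 CPM (SD, n = 3) in Sham and 8.27 ± 0.591 CPM (SD, n = 3) in SNI-NP. The difference was -0.59 ± 0.15 (unadjusted p = 0.00541, adjusted p = 0.348). Its auxiliary subunit of neurons, Kcnmb4, was more abundant per length, at 8.7 against 2.74 FPKM, and read 5.76, 11.9 and 12.5 CPM in Sham and 10.8, 11.2 and 10.5 CPM in SNI-NP. The SNI-NP values lay within the range of the Sham values.

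Kcnt2 (ENSRNOG00000013312), a sodium-activated channel, was at 2.58, 2.99 and 2.39 CPM in Sham and at 1.38, 1.67 and 1.45 CPM in SNI-NP. The groups did not overlap and the difference was -0.82 ± 0.27 (unadjusted p = 0.0172, adjusted p = 0.436), which missed the unadjusted threshold without Sham replicate 2 (unadjusted p = 0.0552). Kcnt1, the related and more abundant sodium-activated channel (6.05 against 0.488 FPKM), ranged from 22.5 to 39.4 CPM in Sham and from 20.5 to 33.4 CPM in SNI-NP. Small-conductance channels, which shape the pause after a spike, gave no call. Kcnn2 was at 6.9, 2.59 and 4.89 CPM in Sham and at 1.73, 2.72 and 3.65 CPM in SNI-NP, a difference of -0.83 ± 0.42 (adjusted p = 0.501). Kcnn4, the intermediate-conductance channel of blood cells and microglia, was at 5.22, 6.76 and 6.23 CPM in Sham and at 8.8, 6.72 and 9.1 CPM in SNI-NP, a difference of 0.43 ± 0.20 (adjusted p = 0.478). Both overlapped between groups. Kcnn4 passed without SNI-NP replicate 2 (unadjusted p = 0.0392). The 4 blood markers summed to 497.7 to 1197.8 CPM in Sham and to 1065.2 to 2524.5 CPM in SNI-NP, with 2 of them (Alas2 and Hbb) higher, 0 lower and 0 at 0, and their part in the Kcnn4 values was not tested.

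Of the 12 inward rectifiers, Kcnj10 alone passed the unadjusted threshold, and by little. Kcnj10 (ENSRNOG00000007705), the potassium-buffering channel of astrocytes, was at 44, 21.7 and 41.6 CPM in Sham and at 25.5, 24 and 20.8 CPM in SNI-NP. Sham replicate 2 lay among the SNI-NP libraries. The difference was -0.61 ± 0.26 (unadjusted p = 0.0495, adjusted p = 0.459), and it passed in 1 of the 6 fits without 1 library, the one without Sham replicate 2. Kcnj16, which pairs with Kcnj10, was at 25.4, 11.8 and 18.5 CPM in Sham and at 15, 12.6 and 10.8 CPM in SNI-NP (-0.54 ± 0.28, adjusted p = 0.505). Sham replicate 2 was again the lowest Sham library.

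The summed level of 6 astrocyte markers was 1829.2, 748.7 and 1343.3 CPM in Sham and 1266.6, 928.1 and 896.1 CPM in SNI-NP. Sham replicate 2 was the lowest of all libraries for this marker sum, while Kcnj10 and Kcnj16 were lowest in SNI-NP replicate 3. Of these markers, 1 (the glutamate transporter Slc1a2) was lower and 0 were higher at an unadjusted p under 0.05, and 0 of them were at 0. The part of the astrocyte markers in the Kcnj10 result was not tested. Kcnj8, the pore of an ATP-sensitive channel of pericytes and smooth muscle, was at 12.8, 10.4 and 9.66 CPM in Sham and at 15.8, 12.1 and 15.7 CPM in SNI-NP. The difference was 0.41 ± 0.18 (unadjusted p = 0.056, adjusted p = 0.467) and the groups overlapped. It passed after correction for gene length (unadjusted p = 0.0365), without SNI-NP replicate 2 (unadjusted p = 0.0303) and without Sham replicate 1 (unadjusted p = 0.036). The 5 endothelial and pericyte markers found in the table summed to 567 to 599.8 CPM in Sham and to 626.1 to 774.8 CPM in SNI-NP, without overlap. At an unadjusted p under 0.05, 2 markers (Pdgfrb and Vtn) were higher and 0 lower, and 0 were at 0. Much of the gap lay in Vtn, at 98, 157.7 and 106.9 CPM in Sham and at 231.7, 197.3 and 169.3 CPM in SNI-NP. Flt1 (-0.24 ± 0.13) and Rgs5 (-0.35 ± 0.26) were fitted below 0, and Cldn5 (0.17 ± 0.12) above it. The part of these markers in the Kcnj8 values was not tested. Kcnj11, the pore of the ATP-sensitive channel of neurons, ranged from 11 to 18.8 CPM in Sham and from 12 to 15.7 CPM in SNI-NP, and Kcnj3, Kcnj6 and Kcnj9, the G protein-gated subunits through which opioids act, also overlapped.

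The 11 leak channels gave 0 members past the unadjusted threshold, with a median difference of -0.09. Kcnk1, the most abundant at 51.5 FPKM on average, was at 109.5, 109.7 and 89.9 CPM in Sham and at 115.5, 95.1 and 125.2 CPM in SNI-NP, which overlap. Kcnk2, a channel opened by stretch and by volatile anaesthetics, was at 24.5, 32.7 and 30.3 CPM in Sham and at 35.3, 36.6 and 34.1 CPM in SNI-NP. All SNI-NP values lay above all Sham values, and the difference was 0.28 ± 0.13 (unadjusted p = 0.0734, adjusted p = 0.489). The other members with SNI-NP above Sham in every library were 2 low ones, Kcnk16 and Kcne2, chosen after their values were seen. Kcnk16 was at 0.6, 0.563 and 0.757 CPM in Sham and at 1.15, 1 and 1.28 CPM in SNI-NP (0.83 ± 0.36, unadjusted p = 0.0524). Kcne2 was at 1.26, 0.958 and 0.99 CPM in Sham and at 2.3, 1.61 and 1.45 CPM in SNI-NP (0.74 ± 0.34, unadjusted p = 0.0624). Neither passed in any fit without 1 library. Kcnk16 was called after correction for gene length (unadjusted p = 0.0452), with at least 10 counts required in every library (unadjusted p = 0.0288) and on FPKM with limma (unadjusted p = 0.00342). Kcne2 was called under the last pair of settings (unadjusted p = 0.0426 with at least 10 counts, unadjusted p = 0.0147 on FPKM).

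The remaining voltage-gated families gave values that overlapped between the groups. Kcnc1, a channel of fast-spiking neurons, was at 70.2, 23.4 and 49.4 CPM in Sham and at 41.4, 27.4 and 29.5 CPM in SNI-NP. The Sham libraries alone spanned the whole range, and the difference was -0.54 ± 0.37 (adjusted p = 0.595), with -0.16 without Sham replicate 1 and -0.87 without Sham replicate 2. Kcnc4, a related channel, ranged from 30.4 to 58 CPM in Sham and from 27.1 to 47.7 CPM in SNI-NP. In the Kcnq family, which carries the M current that dampens repetitive firing, Kcnq3 differed by -0.98 ± 0.64 and Kcnq5 by -0.69 ± 0.45, with adjusted p-values by edgeR of 0.58 and 0.579. Kcnq3 was -2.05 without SNI-NP replicate 1, where it passed the unadjusted threshold (unadjusted p = 0.00454), and -0.57 without SNI-NP replicate 3. Kcnq5 was -0.31 without SNI-NP replicate 1 and -0.43 without Sham replicate 3, and passed in none of the 6 fits without 1 library.

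**Figure D3:**
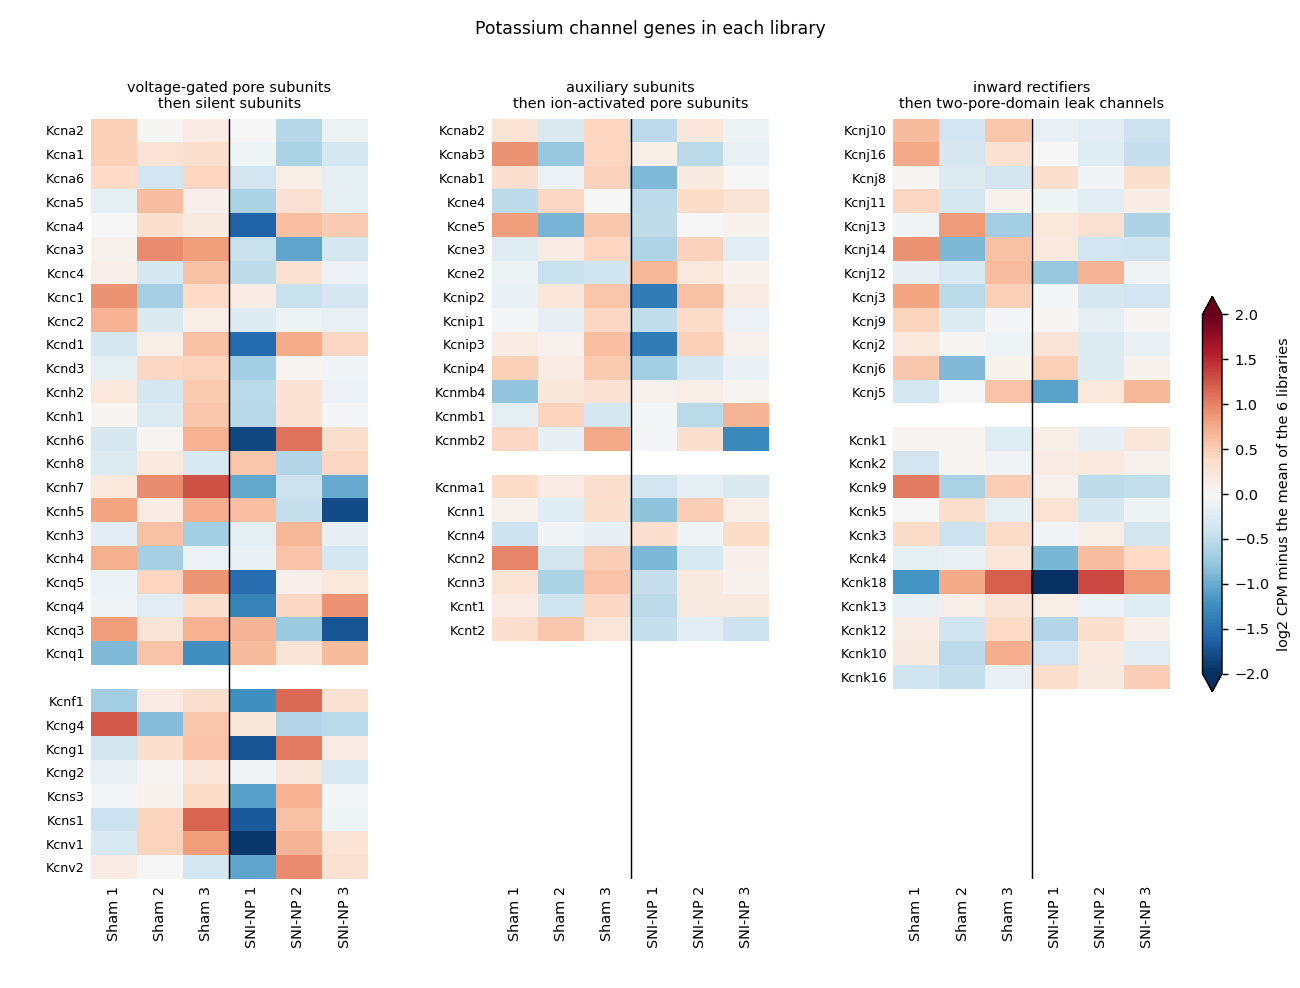
Log2 CPM (with 0.2 CPM added) of each member minus its mean over the 6 libraries, in color, for 75 of the 78 members, with libraries as columns (the line parts Sham from SNI-NP) and members as rows ordered by family within each role. SNI-NP 1 holds most of the deep blue cells, and a set of members that includes Kcng4, Kcnc1 and Kcnk9 is red in Sham 1 and Sham 3 and blue in Sham 2.

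The libraries of one group differed from each other in an ordered way across many members. This order was looked for after the values were seen. SNI-NP replicate 1 was the lowest of the 6 libraries in 36 members (46.2%), against 17.1% of all genes tested, and Sham replicate 3 was the highest in 24 (30.8%, against 13.0%). The median member deviated from its mean by 0.12, 0.00 and 0.41 on the log2 scale in the Sham libraries and by -0.39, 0.17 and -0.07 in the SNI-NP libraries. In 17 members (21.8%, against 8.17% of all genes) both replicate 1 libraries were the lowest pair, and in 25 (32.1%, against 13.3%) Sham replicates 1 and 3 were the highest pair.

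Members of the first kind included silent subunits and A-current genes. Kcns1, a silent subunit of sensory neurons, was at 8.52, 15.7 and 26.1 CPM in Sham and at 3.45, 17.3 and 10.8 CPM in SNI-NP. Kcnk18, a leak channel of sensory neurons, had 11, 56 and 74 counts in Sham and 1, 85 and 58 counts in SNI-NP. Kcnd1, Kcnf1, Kcnip2 and Kcnv1 shared the order, as did Kcng1 and Kcnh6, which were named after their values were seen. The 8 markers of dorsal root ganglion neurons summed to 408.4, 802.5 and 936.6 CPM in Sham and to 89.1, 1265.6 and 917.1 CPM in SNI-NP, so that both replicate 1 libraries were the lowest there too. Of these 8 markers 0 passed an unadjusted p of 0.05 in either direction and 0 were at 0. The order was not particular to ganglion markers. Sham and SNI-NP replicate 1 were also the lowest pair for the motor neuron sum (304.6 and 165 CPM), which is mostly Prph. The same held for the neuronal markers Stmn2 (417.1 and 254.4 CPM) and Tubb3 (788.2 and 515.6 CPM), but not for Snap25 and Slc17a6. The part of any of these cells in the order of the members was not tested. The silent subunits held 5 of the 17 members. Of the 8 lower members 0 were among the 17. For 7 of them this was fixed by their groups lying apart, which keeps Sham replicate 1 out of the lowest pair.

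Members of the second kind included Kcng4, a silent subunit, at 67.9, 15.7 and 42.4 CPM in Sham and 33.8, 19.1 and 19.8 CPM in SNI-NP, with a difference of -0.79 ± 0.49 (adjusted p = 0.56) that was -0.27 without Sham replicate 1 and -1.19 without Sham replicate 2. Kcnk9, a leak channel that opens in alkaline surroundings, was at 18.2, 5.58 and 12.3 CPM in Sham and at 9.26, 6.05 and 6.2 CPM in SNI-NP. Sham replicate 2 was also the lowest library for some markers of neurons and oligodendrocytes. Slc32a1 of neurons was at 61.1, 19.4 and 49.5 CPM in Sham and at 42.6, 32.5 and 28.3 CPM in SNI-NP. Mog of oligodendrocytes was at 126.3, 41 and 86.7 CPM in Sham and at 68.9, 51.6 and 44.6 CPM in SNI-NP. Other markers of these cells, Stmn2 and Mbp, were lowest in other libraries. Among the 8 lower members, Kcna1, Kcna2, Kcnip4, Kcnma1 and Kcnj10 had their highest pair in Sham replicates 1 and 3, and Kcnh7, Kcna3 and Kcnt2 did not. Where the groups lay apart, the highest pair was always within Sham. Leaving out Sham replicate 2 raised the lower members from 8 to 20 (25.6%, against 8.32% of all genes) and the higher ones from 0 to 2 (against 6.3%). Kcnc1, Kcng4, Kcnk9, Kcnj3, Kcnj16, Kcnn2 and Kcna6 were among those lower in that fit, and Kcnk2 and Kcnq1, the latter named after its values were seen, were the higher ones.

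**Figure D4:**
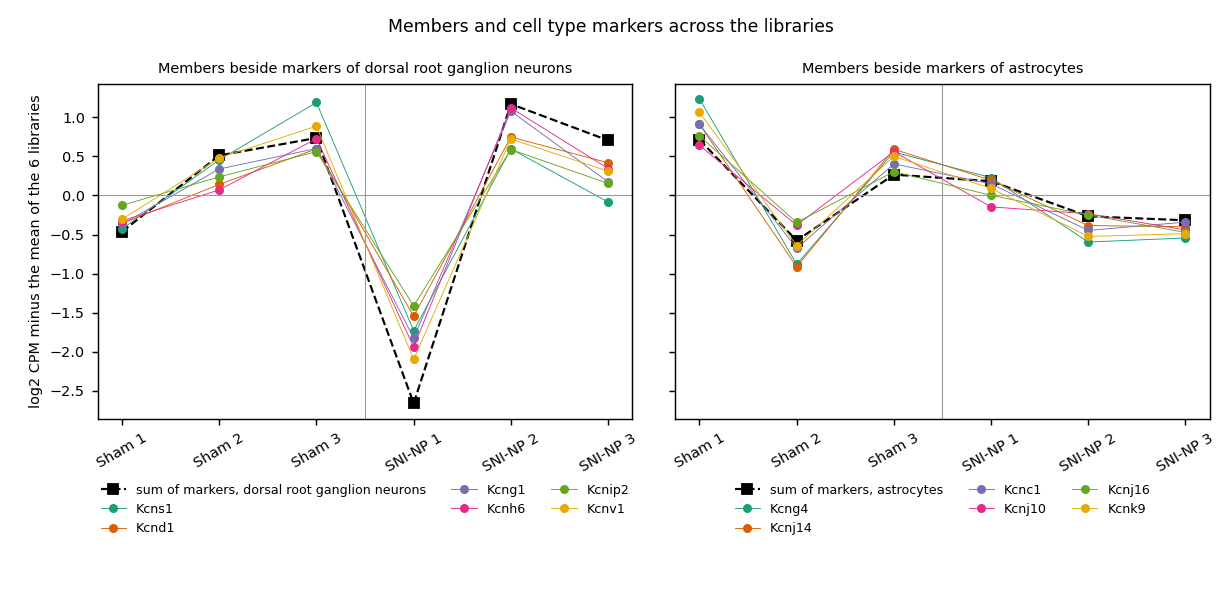
Log2 CPM minus the mean of the 6 libraries (vertical axis) for members and for the summed level of a marker list (black squares), in each library, where lines only join the points of a gene. At left both replicate 1 libraries are the lowest for the dorsal root ganglion markers and the 6 members drawn; at right Sham 2 is the lowest for the astrocyte markers, Kcng4, Kcnj14, Kcnc1 and Kcnk9, while Kcnj10 and Kcnj16 are lowest in SNI-NP 3. The members were chosen after their values were seen. Some markers of other cell types, which are not drawn, also had both replicate 1 libraries as the lowest pair or Sham 2 as the lowest library.

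Without both replicate 1 libraries, 9 members (11.5%) were lower and 0 higher, where 8.49% and 1.64% of all genes were, while the median of the members was -0.07. This setting was chosen after seeing the data. Kcna1 (-0.81, unadjusted p = 0.00135), Kcnh7 (-1.99, unadjusted p = 0.00198), Kcna3 (-1.87, unadjusted p = 0.00981), Kcnip4 (-0.62, unadjusted p = 0.0222) and Kcnma1 (-0.52, unadjusted p = 0.0411) were among the 9. These 5 passed in each of the 6 fits that left out 1 library. The 10 markers of neurons at large summed to 3921.7 to 5731.8 CPM in Sham and to 2324.3 to 5433.2 CPM in SNI-NP, with 2 of them (Snap25 and Slc17a6) lower, 0 higher and 0 at 0. The part of neuronal content in the lower members was not tested.

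Levels were compared within families by FPKM, averaged over all 6 libraries. The mean level ran from 0.123 FPKM (Kcnv2) to 76.7 FPKM (Kcnab2, the cytoplasmic partner of Kcna channels), with a median of 3.11 FPKM, 7 members above 20 FPKM and 16 below 1 FPKM. In the Kcna family Kcna2 (30.1 FPKM), Kcna1 (27.7 FPKM) and Kcna6 (18.5 FPKM) overlapped with their neighbors in the order, and all lay above Kcna5 (3.54 FPKM), Kcna4 (1.29 FPKM) and Kcna3. Kcnk1 (51.5 FPKM) did not overlap with Kcnk2 (12.4 FPKM). Kcnj10 (20.8 FPKM) lay above Kcnj16 (8.85 FPKM). From Kcnj16 through Kcnj8 at 5.02 FPKM down to Kcnj5 at 0.655 FPKM, each inward rectifier overlapped with the next in order. Kcnip2, Kcnip1, Kcnip3 and Kcnip4 (15.6, 13.4, 11.3 and 6.59 FPKM) could not be ordered beyond their ranges.

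**Figure D5:**
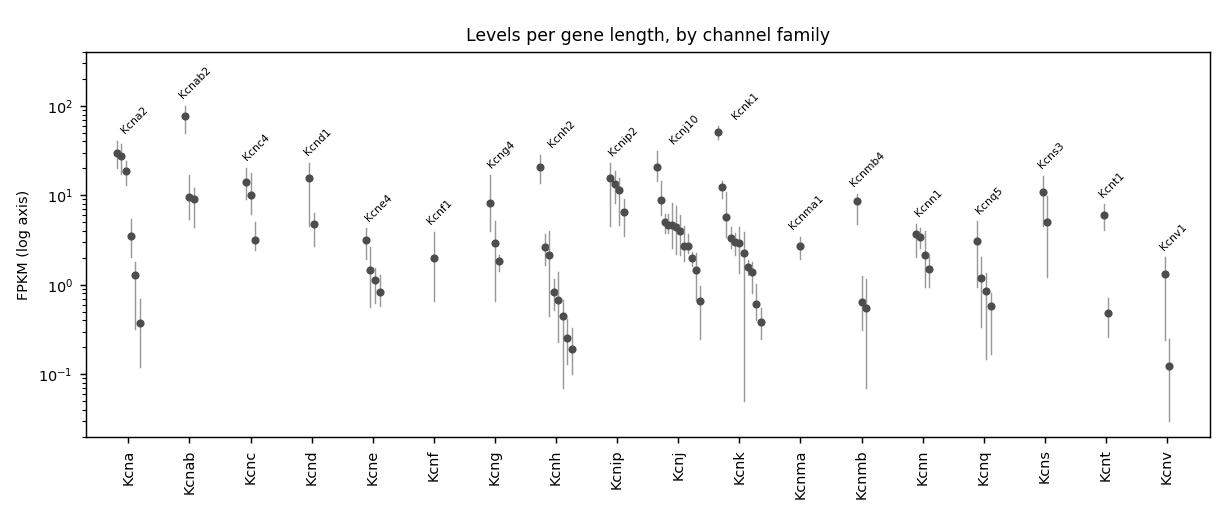
FPKM on a log axis for 75 of the 78 members by family, with the mean over the 6 libraries as a point and the lowest to highest library as a bar; the highest member drawn in each family is named. Kcnab2 and Kcnk1 have the highest means drawn (76.7 and 51.5 FPKM), and the bar of Kcnk18 reaches down to 0.05 FPKM in SNI-NP 1.

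Of the genes with a matching symbol, 13 did not reach the sum. The nearest below it were Kcnk7 (59 counts) and Kcnj4 (53 counts), and the nearest above it Kcnv2 (67 counts) and Kcnmb1 (72 counts). Kcne1, Kcnk6, Kcnmb3 and Kcnu1 had 0 counts in all libraries, which allows up to 0.165 to 0.18 CPM in a library, from counting error only. Another gene, LOC100909725, annotated as Kcnk6-like, had 971 counts, so the 0 of Kcnk6 may not be its own level. The sequence of LOC100909725 was not compared with that of Kcnk6 here.

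Proteins that bind or control these channels were counted from a list of 32 genes, of which 28 rows could be tested. Of these, 5 (17.9%, against 5.94% of all genes) were lower at an unadjusted p under 0.05, 0 were higher and 0 passed after adjustment, with a median of -0.23. The count was 11 without Sham replicate 2 and 3 without either of the other Sham libraries. Dpp10, which binds Kcnd channels, was at 15.4, 22.3 and 19.6 CPM in Sham and at 6.44, 10.9 and 11 CPM in SNI-NP (-1.02 ± 0.25, adjusted p = 0.336). Adam22, a partner of Kcna channels beside the node, was at 15.8, 14.2 and 19.8 CPM in Sham and at 5.52, 10.1 and 8.35 CPM in SNI-NP (-1.06 ± 0.25, adjusted p = 0.331). Dlg2, a scaffold of Kcna channels, was at 18.9, 11.5 and 15 CPM in Sham and at 8.11, 9.72 and 7.36 CPM in SNI-NP (-0.85 ± 0.22, adjusted p = 0.348). The groups were apart in all 3, and each passed the unadjusted threshold in all 6 fits without 1 library. Adam23 (-0.58 ± 0.20), with overlapping groups, and the scaffold Akap5 (-2.25 ± 0.94), at 0 to 0.748 CPM in SNI-NP, passed in 3 and 2 of them. Adam23 was lost without SNI-NP replicate 1 or without Sham replicate 1 or 3. Akap5 passed without SNI-NP replicate 1, at -4.45, and without Sham replicate 2. Cntn2 and Cntnap1, other proteins of the nodal region, overlapped between groups.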

How the data were processed

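RNA-seq of spinal cord tissue was compared between 3 Sham and 3 SNI-NP libraries, grouped by the sample labels. The genome used by the authors is called Rat6 in their methods, and mapped sequences that were not unique were dropped there; the submitters' processing notes name FastQC, STAR and HTSeq, and the annotation release and use of strand are not given in the sources used here. The deposited table gives, per the file headers, a count of each gene and its FPKM, scaled by the authors for gene length and library size. The counts, some with decimals, were taken here as estimated and not normalized. The estimated counts, deposited with decimals in 3 members (Kcng4, Kcnj13 and Kcnip2), were rounded. With edgeR version 4.0.16 in R version 4.3.3, genes were filtered by filterByExpr and scaled by TMM, and the quasi-likelihood test was run on 14426 genes with group as the single term; the common biological coefficient of variation was 0.223. In counts simulated for this comparison over 14298 genes, 89% of 200 genes changed by 2 on the log2 scale were recovered, and 8.25% of calls were unchanged genes. The changed genes were drawn from those above a set mean count. Every member differed by less than 2, so the share recovered does not hold for the differences reported here.

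Depth was 16670760 to 18151156 counts per library, so 0 counts allow up to 0.18 CPM. Gene length was derived from counts and FPKM. Alternatives were DESeq2 version 1.42.0, limma version 3.58.1 on log2(FPKM + 0.1), RLE and upper-quartile factors, no filter, at least 10 counts in every library, loess offsets on gene length (span 0.5), the replicate number as a block, and leaving out each library. Named members were those past an unadjusted p of 0.05, the highest by FPKM in each family, members known for the spinal cord or pain, and those nearest the count sum of 60. Kcna4, Kcna5, Kcnc4 and Kcnj5 are named outside these rules, and others are said to be chosen after their values were seen. The members, marker lists and partner list were chosen with earlier results of these data known. The table's functional annotation was not used, and 3 members and a marker gene are not reported here. Of the marker lists, those of motor neurons (165 to 753.5 CPM in SNI-NP, 304.6 to 486.1 CPM in Sham), oligodendrocytes (30040.9 to 40082.8 and 30373.4 to 40884.2 CPM), microglia (251 to 277 and 232.3 to 306.2 CPM), skeletal muscle (9.83 to 394.2 and 11 to 66 CPM), blood (1065.2 to 2524.5 and 497.7 to 1197.8 CPM) and fibroblasts (3552.3 to 4424.8 and 2665.7 to 3834.2 CPM) overlapped between the groups. At an unadjusted p under 0.05, 2 of the 4 blood markers, 1 skeletal muscle marker (Myh4) and 1 fibroblast marker (Col1a1) were higher, 0 markers of these 6 lists were lower, and 0 were at 0 in all libraries. The motor neuron sum was mostly Prph, at 130.1 to 722.4 CPM and fitted at 0.40 ± 0.54. Chat (-0.65 ± 0.43), Slc5a7 (-0.96 ± 0.47), Slc18a3 (-0.72 ± 0.41) and Isl1 (-0.17 ± 0.73) were fitted below 0, and Mnx1 was too low to test.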

Additional observations from a re-analysis of the deposited data

How the results depend on the processing

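No alternative turned the direction of the members' median. The 8 lower members, 0 higher, became 7 lower and 2 higher with FPKM and limma, with at least 10 counts in every library and with gene length offsets, and 5 lower in all with length offsets and the replicate block together. With at least 10 counts required, Kcna3 (7 counts in SNI-NP replicate 2) was not tested, nor were other members below 10 counts in a library. With DESeq2, 3 members passed an adjusted p of 0.05. When 1 library was left out, the members past the unadjusted threshold numbered 6 to 22, the lower ones 6 to 20 and the higher ones 0 to 2, and those past an adjusted p of 0.05 numbered 0 to 1, that 1 being Kcna1 without SNI-NP replicate 1. The highest counts came without Sham replicate 2, where 7 of the 8 members were still lower. The partner genes numbered 3 to 11 in place of 5, with 11 without Sham replicate 2 and 3 without Sham replicate 1 or 3. The median of the members ranged from -0.46 to -0.08 when 1 library was left out and was -0.07 without both replicate 1 libraries. Of the single genes with a printed difference, partner genes included, 376 values under an alternative stayed on their side of the threshold, 22 passed it anew and 27 no longer passed. The other 4 changed direction, all of them Kcna4 (0.39 without SNI-NP replicate 1, against -0.41 without SNI-NP replicate 2, and above 0 also at 0.04 without Sham replicate 2, 0.28 without both replicate 1 libraries and 0.02 with length offsets). The cause of these shifts was not tested.

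Whether the replicate numbers of the labels pair the libraries cannot be told from 3 libraries a group. The libraries numbered 1 correlated best with each other. Deviations from the group means correlated at 0.214, -0.143 and 0.0542 between libraries with the same number, and not every library correlated best with its own number (the third Sham library correlated at 0.222 with the second SNI-NP library). With the replicate number as a block, 9 members were lower, 0 were higher and 0 passed an adjusted p of 0.05, with a median of -0.26. Kcnj10 was lost (-0.55, unadjusted p = 0.0641), while Kcnd3 (-0.46, unadjusted p = 0.0114) and Kcnq5 (-0.80, unadjusted p = 0.0163) passed; neither passed with length offsets added (unadjusted p-values of 0.144 and 0.059). The order of levels within a family by CPM over gene length in place of FPKM was the same in 18 of 19 families. With 3 libraries a group, an exact permutation test of a single gene cannot go below 0.1, and members under about 1 FPKM rest on few counts.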
